A study of Mus musculus with 2 samples.

Results

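The genes described here are 40 genes of ribosome biogenesis and the nucleolus, with the transcription factor gene Myc among them as their regulator. They were taken by gene symbol from the 32544 entries of the gene table, each symbol matching 1 entry. The choice used no cutoff on a measured value, but it was made with earlier results of these data known. They comprise Myc, 3 genes of RNA polymerase I and its cofactors, 7 core proteins of small nucleolar ribonucleoproteins (snoRNPs), 10 genes of small subunit assembly, 14 of large subunit assembly and 5 nucleolar scaffold, chaperone and helicase genes. Their levels were read from single-cell mRNA sequencing (scRNA-Seq, 10x Genomics 3′ kit) of mouse BMDMs, monocytes grown from bone marrow, on their way to osteoclasts (OCs), which are the cells that resorb bone. One library came from a control genotype, whose alleles the labels do not give further, and the other from LysM-Cre;Arid1afl/fl cells and is named the mutant library below. The Cre drives recombination from the Lyz2 locus in myeloid cells, so floxed Arid1a, a gene of the BAF complex that remodels chromatin, can be lost in monocytes, macrophages and neutrophils alike. Both cultures received M-CSF at 50 ng/ml together with RANKL at 100 ng/ml, and the methods of the study give 24 h after RANKL as the time and mice of 4 to 6 weeks as the marrow source.

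Ribosomes are built in the nucleolus, where RNA polymerase I transcribes the ribosomal RNA precursor. Box C/D snoRNPs methylate this precursor and box H/ACA snoRNPs convert some of its uridines to pseudouridine, while processing and assembly factors cut it and join it with ribosomal proteins into a small and a large subunit. MYC is known as a transcriptional activator of many of these genes, and growing, dividing cells need large numbers of ribosomes. In the OC lineage, Myc is known to be induced by RANKL and to be needed for OC formation.

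Cells with at least 500 genes and at most 10% mitochondrial UMIs were kept, 6269 from the control and 5663 from the mutant library. A UMI marks 1 captured mRNA molecule. The median depth was 23978 and 21734 UMIs per cell, and 8 barcodes occurred in both libraries. Per cell, the median mitochondrial share of UMIs was 2.04% for control and 1.27% for mutant cells, and that of ribosomal protein genes 21.6% and 15.8%. Both shares thus moved with the genotype. Each genotype had 1 library, so no difference below has a replicate check and none has a p-value. Levels are UMIs of a gene summed over cells and scaled to 1000000 UMIs (CPM), which is relative to all mRNA counted and says nothing of the RNA content of a cell. Because 1 molecule gives 1 UMI at its 3′ end, CPM does not scale with transcript length. Ranges in parentheses are 95% intervals, which cover counting error and nothing else. Ratios are given as log2 of mutant over control unless another pair is named. A gene is counted as lower or higher when it was past 1.2-fold and its mean was at least 20 CPM. Arid1a itself was lower in the library labelled as mutant, with 51.9 and 20.4 CPM (-1.35, from -1.41 to -1.28), a 3′ count that a recombined transcript can still give. All 8 macrophage markers were detected in both libraries, with sums of 1373 and 2788 CPM. Neutrophil markers (8 genes) summed to 314 CPM in the control and 2107 CPM in the mutant library, and those of myeloid progenitors (7 genes) to 6.87 and 68.8 CPM. Class II markers (4 genes) summed to 28.7 and 116 CPM and stromal markers (8 genes) to 6.77 and 14.1 CPM. Lymphoid and erythroid markers summed to at most 2.64 CPM, with Cd3e at 0 in both libraries.

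All 40 genes had a lower level in the mutant library, and the interval of every log2 ratio lay below 0. Of the 37 that reached a mean of 20 CPM, 34 were lower past 1.2-fold and 0 were higher. Among all 5219 genes at that level, 21.9% were lower and 27.9% higher, and the median log2 ratio of all of them was 0.02. The median of the 37 genes was -0.56, and the ratios ran from -1.12 for Dkc1 to -0.14 for Noc2l. Together the 40 genes made up 6286 CPM of the control library (6273 to 6298) and 3722 CPM of the mutant library (3711 to 3732), a log2 ratio of -0.76. Npm1 and Ncl carried 43.5% of these UMIs in the control library and 38.3% in the mutant library. Without these 2 genes and Myc the summed level was 3503 and 2261 CPM, still a log2 ratio of -0.63. With totals that leave out mitochondrial and ribosomal protein genes, 31.5% of all genes were lower and 21.1% higher, and 36 of the 37 genes were lower. The macrophage, neutrophil, progenitor and class II markers above moved with the genotype, and so did the share of cells in the OC gate described below. In the mutant library without cells holding neutrophil or stromal markers, neutrophil markers summed to 220 CPM, and the median of the 37 genes over both libraries so filtered was again -0.56, with 34 genes lower.

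**Figure D1:**
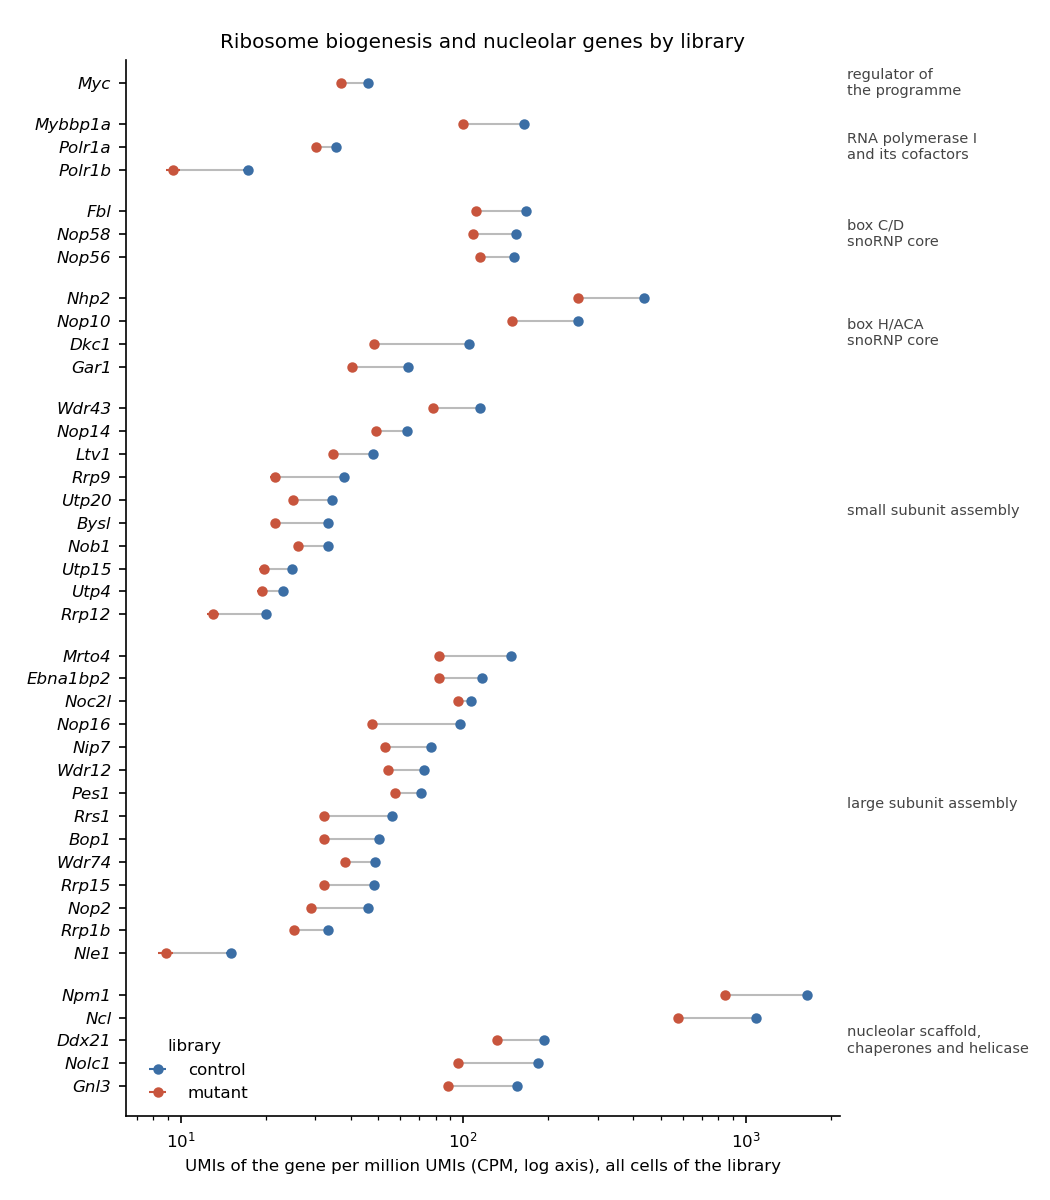
Level of each of the 40 genes in the control (blue) and mutant (red) library, in CPM over all cells on a log axis, with genes grouped by role. Bars are 95% Poisson intervals of counting error and are mostly smaller than the points. Every red point lies left of its blue point, and the gap is widest for Dkc1 (105 and 48.2 CPM) and narrowest for Noc2l (106 and 96.2 CPM).

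Myc (ENSMUSG00000022346, chromosome 15, 61857227 to 61862223, plus strand of GRCm39) was among the genes with the smaller differences. Its level was 46.0 CPM in control cells (44.9 to 47.0) and 36.9 CPM in mutant cells (35.9 to 38.0), a log2 ratio of -0.32 (-0.37 to -0.26). At an equal depth of 5000 UMIs per cell, a Myc UMI was found in 19.8% of control cells (18.8 to 20.8%) and in 15.9% of mutant cells (14.9 to 16.9%). RNA free in the droplets can give such UMIs to cells that lack the transcript. Among cells with at least 30 neutrophil-marker UMIs at this depth, 0 of 18 control cells held a Myc UMI, which allows a share of up to 16.7% taken as 3 counts and up to 18.5% by the exact interval, and 4 of 78 mutant cells did (5.13%, from 1.41 to 12.6%). Their median depth before thinning was 8669.5 and 11143 UMIs, against 24266 and 22412 UMIs over all cells. The share over all mutant cells was above that background, and for the control library 18 cells set only a limit, which was below the share over all cells.

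Of the RNA polymerase I genes, Polr1b, which encodes the second-largest subunit, had 17.3 and 9.39 CPM (-0.88, from -0.98 to -0.78), with a mean below 20 CPM. Mybbp1a, which encodes a nucleolar MYB-binding protein with a role in ribosomal RNA synthesis, had 164 CPM in control cells (162 to 166) and 100.1 CPM in mutant cells (98.4 to 102), a log2 ratio of -0.71 (-0.74 to -0.68). Polr1a, the gene of the largest subunit, had the smallest difference of the 3, with 35.6 and 30.1 CPM (-0.24), which is within 1.2-fold.

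The snoRNP core genes were all lower, and over all cells the box H/ACA genes stood further apart between the libraries than the box C/D genes. Dkc1 encodes dyskerin, the pseudouridine synthase. Its level was 105 CPM in control cells (103 to 107) and 48.2 CPM in mutant cells (47.0 to 49.4) (-1.12, from -1.16 to -1.08), a level 0.459 times that of the control. Nop10, its small partner protein, had 254 and 149 CPM (-0.78, from -0.80 to -0.75), Nhp2 had 436 and 256 CPM (-0.77) and Gar1 had 63.7 and 40.3 CPM (-0.66). Fbl encodes fibrillarin, the methyltransferase of box C/D snoRNPs, and had 167 CPM (165 to 169) and 111 CPM (109 to 113), a log2 ratio of -0.59 (-0.62 to -0.57). The scaffold genes Nop58, with 154 CPM (152 to 156) and 109 CPM (107 to 110), and Nop56 had log2 ratios of -0.51 (-0.54 to -0.48) and -0.40. Over all cells the 4 box H/ACA ratios ran from -1.12 to -0.66 and the 3 box C/D ratios from -0.59 to -0.40. The intervals of Gar1 (-0.71 to -0.61) and Fbl overlapped, however. In cells of neither gate, described below, Gar1 was at -0.52 and Fbl at -0.55. The difference between these groups of genes was not tested.

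Of the 10 genes of small subunit assembly, 9 reached that mean and 8 of these were lower, with a median of -0.46. Rrp9, which encodes the U3 snoRNP protein, had the largest difference, with 37.9 CPM (37.0 to 38.9) and 21.5 CPM (20.7 to 22.3) and a log2 ratio of -0.82 (-0.88 to -0.75). Bysl, the gene of bystin, a factor of late small subunit maturation, had 33.4 and 21.6 CPM (-0.63, from -0.69 to -0.56). Utp4, of an early processome subcomplex, had a ratio of -0.25 and was the one within 1.2-fold. Rrp12 (-0.62) had too low a mean to be counted, and Wdr43, Utp20, Ltv1, Nop14, Nob1 and Utp15 lay between -0.55 and -0.33.

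Of the 14 genes of large subunit assembly, 13 had the minimum level and 12 were lower, with a median of -0.54. Nop16 had 97.8 CPM in control cells (96.3 to 99.3) and 47.6 CPM in mutant cells (46.5 to 48.8) (-1.04, from -1.08 to -0.996), the second-largest difference of the 40 genes. Mrto4 encodes a factor that takes the place of the ribosomal stalk protein on the immature subunit, and had 147 and 82.3 CPM (-0.84, from -0.87 to -0.81). Rrs1 followed at -0.79. The 3 genes of the PeBoW complex differed unequally, with -0.65 for Bop1, -0.43 for Wdr12 and -0.30 for Pes1. Noc2l, which also encodes a histone-binding inhibitor of acetylation, had 106 CPM (105 to 108) and 96.2 CPM (94.5 to 97.9), a log2 ratio of -0.14 (-0.18 to -0.11) and within 1.2-fold.

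The nucleolar scaffold, chaperone and helicase genes had the highest summed level of the roles, carried by Npm1 and Ncl, and the median furthest from 0, at -0.92. Npm1 (ENSMUSG00000057113, chromosome 11, 33100281 to 33113267, minus strand), the gene of nucleophosmin, had 1652 CPM in control cells (1645 to 1658) and 848 CPM in mutant cells (843 to 853) (-0.96, from -0.97 to -0.95). Ncl (ENSMUSG00000026234, chromosome 1, 86272441 to 86287208, minus strand), the gene of nucleolin, had 1085 CPM (1080 to 1090) and 575 CPM (571 to 579), a log2 ratio of -0.92 (-0.93 to -0.90). Both levels were thus close to 0.5 times that of the control, with 0.514 for Npm1 and 0.530 for Ncl. Nolc1, which encodes a snoRNP chaperone, had 185 and 95.6 CPM (-0.95, from -0.98 to -0.92). Gnl3, the gene of nucleostemin, had -0.82 and Ddx21, the gene of an RNA helicase, -0.56. Npm1 has processed pseudogenes in the mouse genome, so its reads can be shared with them and its level is uncertain to that extent.

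Other genes of the pathway, from lists that hold none of the 40, were lower less uniformly. Of 29 further genes of the small subunit processome with the minimum level, 19 were lower and 1 was higher (median -0.34). Wdr46 (-0.88) and Noc4l (-0.69) were lowest, while Fcf1, which encodes a nuclease of the processome, had 59.4 and 78.5 CPM (0.40, from 0.36 to 0.44) and Ngdn 0.10. Of 34 further genes of large subunit assembly, 20 were lower and 1 was higher (median -0.33), with Grwd1 (-0.92) and Ppan (-0.90) lowest and Tma16 (0.30) and Tex10 (0.17) highest. Of 6 further genes of the RNA polymerase I machinery, 4 were lower, among them Polr1d (-0.56) and Taf1d (-0.41), and Polr1h was higher (0.33), with Polr1f at -0.08. Of 7 entries of noncoding snoRNA host genes, 5 were lower, with Snhg3 at -0.99, Snhg8 at -0.12 and Snhg6 at 0.07. For Snhg4 the symbol stood in 2 entries, so no single value is given.

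Ribosomal protein genes, the building blocks that these factors assemble, were lower as well but by less. Of 80 cytosolic ribosomal protein genes with the minimum level, 63 were lower and 0 higher, with a median of -0.40, and of 75 mitochondrial ones 38 were lower and 1 higher (median -0.27). Of 11 partners, antagonists and relatives of MYC only 3 reached the minimum level, and over all cells 0 of these were past 1.2-fold. Max, its dimer partner, had 48.4 and 45.9 CPM (-0.07), Mga -0.02 and Mlx 0.00. In cells of both gates, described below, 2 of the 3 were lower (median -0.35), against 28.6% of all genes. Mga was at -0.36 and Mlx at 0.21 there, in only 59 mutant cells. Below the minimum level, the antagonist genes differed in direction. Mxd3 had 1.15 (0.98 to 1.33), Mxd1 0.61 and Mxd4 0.20, while Mnt had -0.18 and Mxi1 -0.81. Mycl, a Myc paralog below that level too, had -1.51 (-1.67 to -1.36). Of 20 genes of metabolism and translation that are commonly listed as MYC targets, 17 were lower and 0 higher (median -0.57). Hspd1, a mitochondrial chaperonin gene, had 468 and 208 CPM (-1.17) and Srm, the gene of spermidine synthase, 153 and 68.2 CPM (-1.16). Mthfd2 was at 0.21 and Nme2 at -0.04.

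What else the 40 genes share was read from the annotation. Of these, 6 (15%) hold annotated snoRNA genes on their own strand, 19 snoRNA genes in all, against 2.85% of 5187 protein-coding genes with the minimum level. Nop56 holds 5, Nop58 4, Ncl, Wdr43 and Gnl3 3 each and Dkc1 1. The snoRNAs themselves are not measured by this assay. For 17 of the 40 an opposite-strand gene lies within 500 bases of the 3′ end that the assay reads, for example Idh3b at Nop56, Mpp1 at Dkc1, Rmnd5b at Nhp2, Arl10 at Nop16, Samd11 at Noc2l and Ccnd3 at Bysl. Whether counting used the strand was not stated, so these levels are uncertain. Of the 22 genes with no such neighbour and the minimum level, 21 were lower.

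MYC and its partner MAX are known to bind the E-box letters CACGTG, which read the same on both strands. RefSeq promoters (GRCm38.p6) were matched for 34 of the 40 genes by symbol, and Bop1, Fbl, Myc, Npm1, Rrp12 and Rrs1 had no entry in the table. In the 250 bases before the start, 1 of 38 member promoters (2.63%) held these letters, against 6.02% of all 32851 promoters in the table. The one that did was that of Nop2, which encodes an RNA methyltransferase of the large subunit and had 46.0 and 29.0 CPM (-0.67). It is printed here from 150 to 31 bases before the start (chr6:125131733-125131852, GRCm38.p6, plus strand), with the E-box letters in capitals at 60 to 55 bases before it.
Nop2: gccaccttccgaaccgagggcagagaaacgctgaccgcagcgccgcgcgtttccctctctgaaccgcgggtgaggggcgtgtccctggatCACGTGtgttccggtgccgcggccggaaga
The absence of the letters elsewhere holds for these windows only.

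To ask whether the difference between the libraries belonged to some of the cells, cells were divided at 5000 UMIs per cell into 4 states. The OC gate took cells in which the OC genes Acp5, Ctsk, Dcstamp and Mmp9 together had 3 UMIs or more. The cycling gate asked the same of the division genes Aurka, Cdk1, Mki67 and Top2a. None of these is among the 40 genes. Neither gate held 3359 control and 3422 mutant cells, the cycling gate alone 2176 and 1715, the OC gate alone 331 and 116, and both gates 235 and 59. Levels in a state use all UMIs of its cells.

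Mutant levels were lower in every state. In cells of neither gate, 30 of 35 genes with the minimum level were lower (median -0.48), against 19.6% of all genes. In cells of the cycling gate alone 36 of 37 were lower (median -0.58), against 20.5%. In cells of the OC gate alone 32 of 37 were lower (median -0.66), against 32.1%, and in cells of both gates 34 of 38 (median -0.66), against 28.6%. In each state 0 genes were higher past 1.2-fold. Of the 40 genes, 39 had a ratio below 0 in all 4 states, and the interval lay below 0 for 38, 40, 35 and 32 genes in the order given. The exception was Myc. Neutrophil markers summed to 3549 CPM in mutant cells of the cycling gate alone, against 346 CPM in control cells, and to 633 against 26.2 CPM in the OC gate alone. Without cells holding neutrophil or stromal markers the medians were -0.49, -0.57, -0.63 and -0.63. Cells of the same state were not alike in the libraries. In the OC gate alone all 4 gate genes were lower in mutant cells (median -1.31, with Mmp9 at -3.03), while macrophage markers summed to 875 CPM in control and 2409 CPM in mutant cells. In both gates 2 of the 4 gate genes were lower (median -0.37), and macrophage markers summed to 773 and 2067 CPM. In neither gate and in the cycling gate alone these sums were 1525 against 2871 CPM and 1325 against 2688 CPM. Gate genes differed there too, with Mki67 at -0.88 and -0.55 and Acp5 at 0.81 and 0.58. Cdk1 was at 0.37 in the cycling gate alone. Over all cells Mki67 was at -0.77, so the cycling gate need not select the same cells in both libraries. A cycling gate without Mki67 gave medians of -0.49 in neither gate and -0.60 in the cycling gate alone. The part of these differences in the levels of the 40 genes was not tested. The median in the OC gate alone was -0.32 and that in both gates -0.77 when gates were set at 2000 UMIs per cell. The median upper limit of the genes' intervals was then 0.01 and 0.34, which is above 0.

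**Figure D2:**
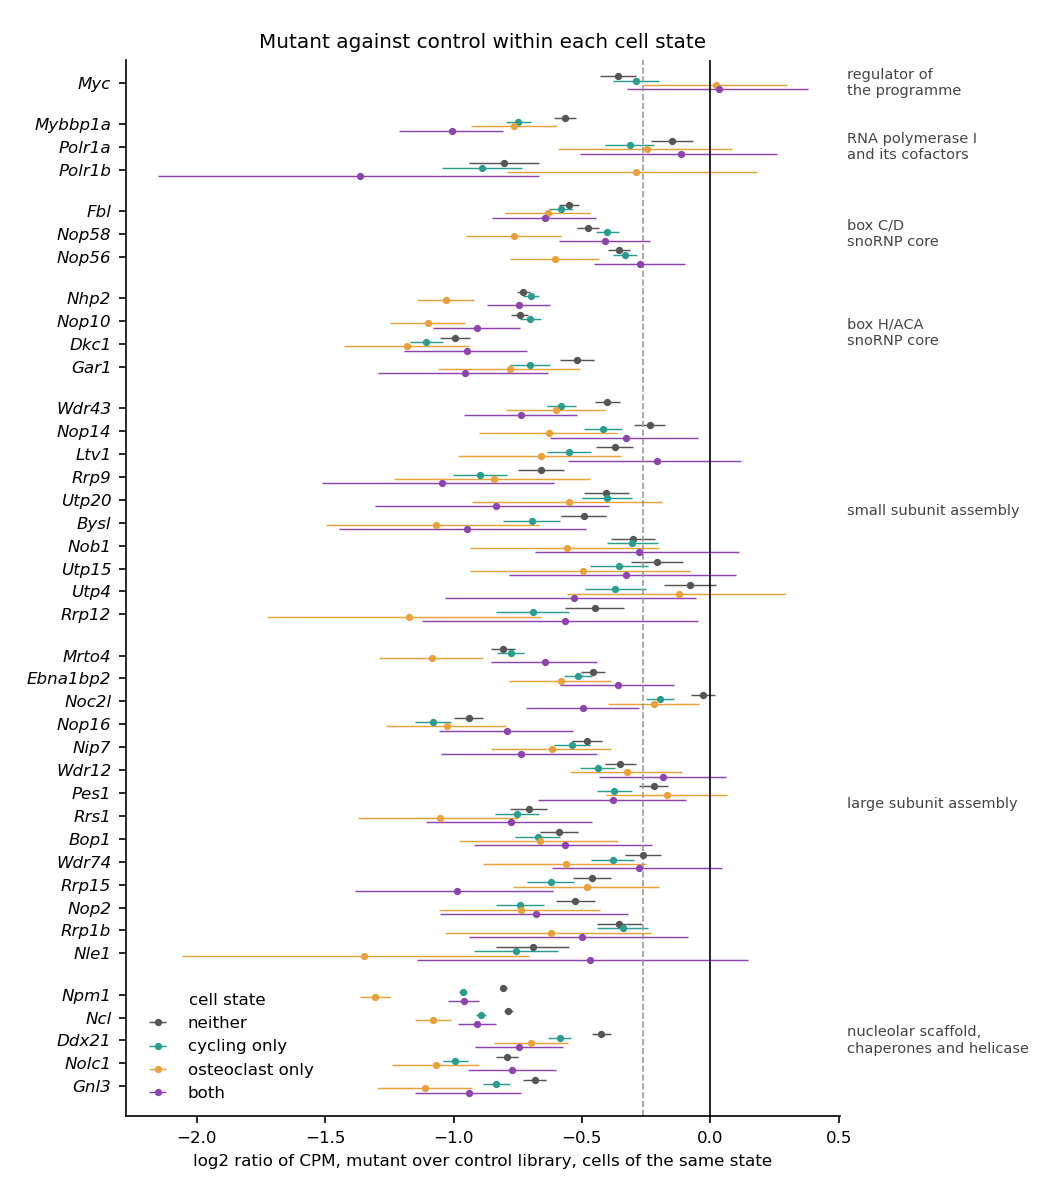
Log2 ratio of CPM, mutant over control, for each of the 40 genes within cells of neither gate (grey), the cycling gate alone (green), the OC gate alone (orange) and both gates (purple), with 95% intervals of counting error. The solid line marks 0 and the dashed line a 1.2-fold lower level. Apart from Myc in the orange and purple states (0.02 and 0.03), every point lies left of 0.

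Npm1 showed the pattern with the most UMIs behind it. In the control library it had 1411 CPM in cells of neither gate, 1757 in the cycling gate alone, 2239 in the OC gate alone and 2603 in both gates. The mutant values were 807, 901, 905 and 1338 CPM. The log2 ratio was therefore -0.81 (-0.82 to -0.79) in neither gate, -0.96 (-0.98 to -0.95) in cycling cells, -1.31 (-1.36 to -1.25) in the OC gate alone and -0.96 (-1.02 to -0.90) in both. The highest mutant level, in both gates, was below the lowest control level. The largest ratio stood in the OC gate alone, where mutant cells also had less Mmp9 and more of the macrophage markers, as given above.

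Ncl had the same order of states in the control library, with 905, 1203, 1333 and 1728 CPM, but not in the mutant library, with 524, 648, 631 and 922 CPM. The mutant level in the OC gate alone was below that in the cycling gate alone, with overlapping intervals. The log2 ratios of mutant over control ran from -0.79 in neither gate to -1.08 in the OC gate alone. For Dkc1 the control levels were 86.7, 117, 124 and 176 CPM and the mutant levels 43.5, 54.6, 54.7 and 91.1 CPM. The mutant level of Dkc1 in both gates was thus close to the control level in neither gate, 91.1 (77.6 to 106) against 86.7 CPM (84.7 to 88.7), with overlapping intervals.

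Noc2l differed little in cells of neither gate. It had 99.2 CPM (97.1 to 101) in control and 97.3 CPM (95.1 to 99.5) in mutant cells there, a log2 ratio of -0.03 (-0.07 to 0.02). The ratio was -0.20 (-0.25 to -0.14) in the cycling gate alone and -0.22 (-0.40 to -0.04) in the OC gate alone. In cells of both gates Noc2l had 156 and 111 CPM (-0.49, from -0.72 to -0.28). Utp4 (-0.08, from -0.18 to 0.02) was the other gene whose interval held 0 in cells of neither gate.

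By state, Myc was lower in mutant cells outside the OC gate. In cells of neither gate its control level was 47.9 CPM (46.5 to 49.5) and its mutant level 37.3 CPM (36.0 to 38.7), a log2 ratio of -0.36 (-0.43 to -0.29), and in the cycling gate alone 43.3 and 35.4 CPM (-0.29). In the OC gate alone it had 46.6 CPM (42.4 to 51.1) and 47.3 CPM (39.8 to 55.8), a ratio of 0.02 (-0.26 to 0.30), and in both gates 46.4 and 47.5 CPM (0.03, from -0.32 to 0.38). A difference in Myc was thus not detectable in OC-gate cells at this depth. Mutant cells had 140 Myc UMIs in the OC gate alone and 85 in both gates, and the interval in both gates holds the -0.29 of the cycling gate alone. The interval in the OC gate alone does not hold that value, and the -0.36 of cells of neither gate lies outside both intervals. The difference between the states was not tested. The sum of the other 39 genes had log2 ratios of -0.97 (-0.99 to -0.94) in the OC gate alone and -0.79 (-0.82 to -0.75) in both gates. MYC protein was not measured, and the part of Myc in these ratios was not tested.

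Within a library, the states could be compared among cells of the same culture. In the control library the 40 genes summed to 5520 CPM in cells of neither gate, 6686 in the cycling gate alone, 7762 in the OC gate alone and 9287 in both. Of 37 genes with the minimum level 14 were higher in the cycling gate alone than in neither gate (median 0.24), against 16.2% of all genes. In the OC gate alone 29 of 38 were higher (median 0.37), against 27%, and in both gates 38 of 39 (median 0.65), against 41.6%. Of the 40 genes, 39 lay above the level in neither gate in all 3 other states. Gates on unthinned counts gave medians of 0.37 in the cycling gate alone and 0.19 in the OC gate alone, and gates at 2000 UMIs gave 0.15 in the cycling gate alone. Dkc1 (1.02), Nolc1 (0.95), Ncl (0.93) and Npm1 (0.88) had the highest log2 ratios in both gates, and Fbl and Pes1 (0.35 each) the lowest after Myc (-0.05, from -0.21 to 0.11).

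In the mutant library the same sums were 3533, 3973, 3996 and 5408 CPM. Of 36 genes 6 were higher in the cycling gate alone (median 0.11), a share close to the 15.7% of all genes. The 6 were Nop58 (0.48), Utp20, Dkc1, Nop56, Ncl and Mrto4. In the OC gate alone 9 of 35 were higher (median 0.17), against 13.7%, and in both gates 30 of 37 (median 0.48), against 32.5%. The value for the OC gate alone was not stable, since gates on unthinned counts turned the median to -0.14 and gates at 2000 UMIs gave 0.54. Here 29 of the 40 genes lay above neither gate in all 3 states. The ratio over neither gate was larger in the control than in the mutant library for 32 genes in the cycling gate alone, 36 in the OC gate alone and 26 in both gates, counts that share the cells of neither gate as reference. The same count was not made over all genes. The share of all genes higher over neither gate was also larger in the control library, with 16.2% against 15.7%, 27% against 13.7% and 41.6% against 32.5% in that order. In the cycling gate alone these shares were close to each other. Whether the counts are particular to the 40 genes was therefore not tested. Dkc1 was again the highest in both gates, at 1.07 (0.83 to 1.29), and Bysl the lowest, at 0.09.

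**Figure D3:**
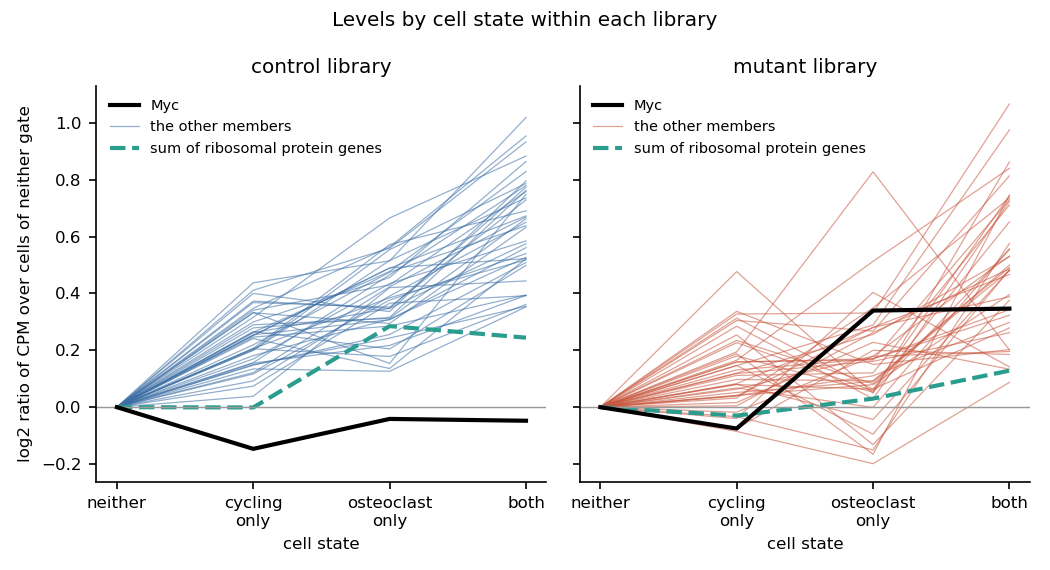
Log2 ratio of CPM over cells of neither gate in the same library, by cell state, for each of the 40 genes (thin lines), Myc (black) and the sum of ribosomal protein genes (dashed green), in the control (left) and mutant (right) library. In the control library every thin line is highest in both gates, though 9 of the 40 genes are lower in the OC gate alone than in the cycling gate alone, and Myc stays below 0. In the mutant library Myc is at 0.34 and 0.35 in the OC gate alone and in both gates, and the median of the genes in the OC gate alone is 0.17, against 0.37 in the control library.

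Ribosomal protein genes did not follow the same steps. In the control library their sum in the cycling gate alone was the same as in neither gate (0.00), where that of the 40 genes was 0.28 above it. In the OC gate alone the ribosomal protein sum was 0.29 above neither gate and in both gates 0.24. In the mutant library it was at -0.03, 0.03 and 0.13.

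At an equal depth of 5000 UMIs, a control cell held a median of 29 UMIs of the 40 genes (quartiles 20 and 40) and a mutant cell 16 (11 and 23). The means were 30.7 ± 14.1 (SD over 6101 cells) and 18.5 ± 9.91 (SD over 5312 cells). By state the control medians were 25, 31, 39 and 46 UMIs in neither gate, the cycling gate alone, the OC gate alone and both gates, and the mutant medians 16, 18, 16 and 20. The interquartile ranges of control and mutant cells did not overlap in the OC gate alone (29.5 to 48 against 9.75 to 25.25) or in both gates (37 to 54 against 13 to 35), although the ranges between the 5th and 95th percentiles did. Counting alone would give an SD of 5.54 UMIs in control and 4.30 in mutant cells, so cells of 1 library differed in these genes by more than counting error. The variance was 4.01 times the mean in control and 8.76 times the mean in mutant cells of both gates, so the 59 mutant cells were the more uneven group there. In the OC gate alone these values were 4.75 and 8.59. The order was the reverse over all cells (6.52 and 5.32), in neither gate (6.33 and 5.18) and in the cycling gate alone (5.78 and 4.96). Cells are not replicates, and these spreads describe 1 culture each.

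**Figure D4:**
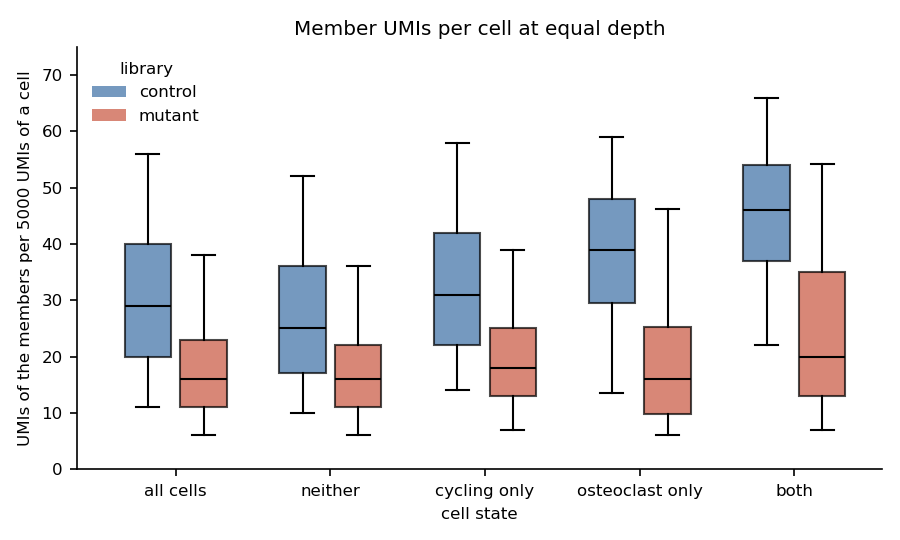
UMIs of the 40 genes per cell after thinning each cell to 5000 UMIs, by state, in the control (blue) and mutant (red) library. Boxes run from the first to the third quartile with the median as a line, and whiskers from the 5th to the 95th percentile of cells. Control medians are 25 to 46 UMIs across the states and mutant medians 16 to 20.

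The genes were last compared with Myc cell by cell, by the number of Myc UMIs in a cell at 5000 UMIs. The control library had 4895 cells with 0, 983 with 1, 193 with 2 and 30 with 3 or more, and the mutant library 4470, 698, 120 and 24. In the control library the other 39 genes summed to 6081 CPM (6067 to 6094), 6846, 7218 and 7549 CPM (7357 to 7744) in these groups. In the mutant library they summed to 3548 CPM (3537 to 3559), 4289, 5196 and 5376 CPM (5154 to 5604). Cells with more Myc UMIs thus had higher levels of the other genes in both libraries, with log2 ratios of 3 or more over 0 of 0.31 (0.27 to 0.35) in the control and 0.60 (0.54 to 0.66) in the mutant library. Of 37 other genes with the minimum level 14 were higher in control cells with 2 Myc UMIs than in those with 0, against 6.66% of all genes, and 33 of 35 in mutant cells, against 20.3%. For cells with 3 or more, 21 of 37 were higher in the control library, against 23.3%, and 30 of 35 in the mutant library, against 30.5%. The median depth was 24378 and 22738 UMIs in control cells with 0 and with 3 or more, and 22403.5 and 18160 in mutant cells.

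Cells with the same count of Myc UMIs still differed between the libraries. Most cells held 0 at this depth, so an equal count does not mean an equal Myc level. The part of Myc in the difference was therefore not tested. The log2 ratio of mutant over control for the 39 genes was -0.78 (-0.78 to -0.77) in cells with 0 Myc UMIs, -0.67 with 1, -0.47 with 2 and -0.49 (-0.56 to -0.42) with 3 or more. Over all cells with a state, mutant cells with 3 or more Myc UMIs had a lower summed level (5376 CPM) than control cells with 0 (6081 CPM). The order was the reverse in cells of neither gate, with 5624 CPM for these mutant and 5360 CPM for these control cells. In cells of neither gate, the 39 genes had 5360, 5732, 6939 and 6407 CPM in the control library and 3354, 4047, 5168 and 5624 CPM in the mutant library, so the last control value lay below the one before it. The ratio between the libraries in that last group, of 17 and 15 cells, was -0.19 (-0.29 to -0.09). Values for cells with 3 or more Myc UMIs rest on few cells, and other draws of the thinning moved them. In single cells, most of which had 0 Myc UMIs, Spearman's rho between Myc UMIs and UMIs of the other 39 genes was 0.11 over 6101 control cells and 0.17 over 5312 mutant cells. By state it ran from 0.06 to 0.15 in the control library. Mutant values were 0.17 in neither gate, 0.15 in the cycling gate alone, 0.36 over 116 cells of the OC gate alone and 0.35 over 59 cells of both gates. Between UMIs of the 39 genes and UMIs of ribosomal protein genes rho was 0.63 and 0.50. In cells of both gates this rho was 0.11 over 235 control cells and 0.75 over 59 mutant cells. These are descriptions of cells that share a library and a fixed total of UMIs.

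**Figure D5:**
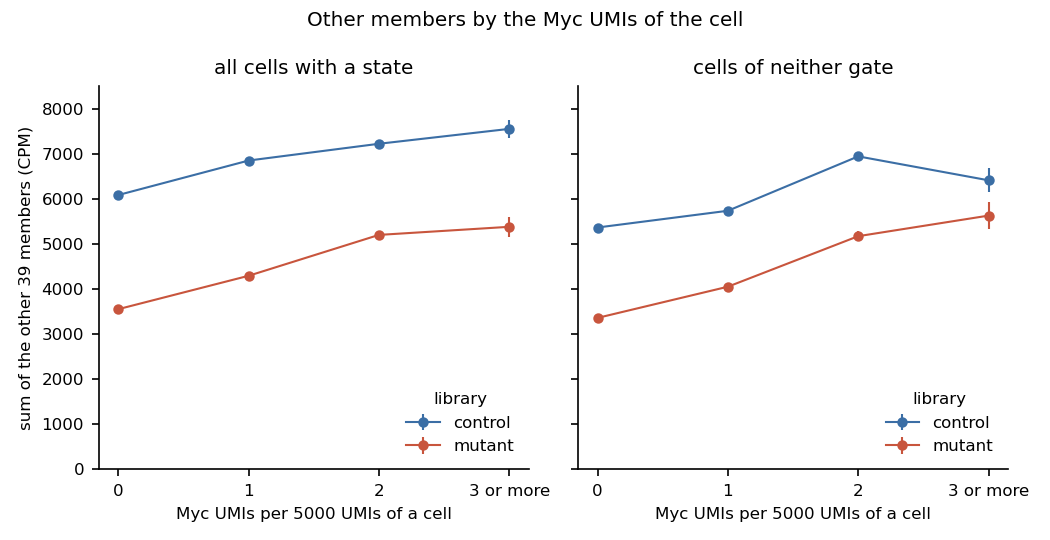
Summed CPM of the 39 genes other than Myc by the number of Myc UMIs in a cell at 5000 UMIs, in all cells with a state (left) and in cells of neither gate (right), for the control (blue) and mutant (red) library. Bars are 95% Poisson intervals of counting error. Both lines climb on the left, from 6081 to 7549 CPM and from 3548 to 5376 CPM, and the red line stays below the blue one in every group.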

How the data were processed

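Per the file headers and the methods of the study, the authors aligned 10x Genomics 3′ libraries to GRCm39 and deposited raw UMI counts for each gene in each barcode, made with Cell Ranger 6.1.0, as filtered matrices. The methods name an aggregation of matrices, and whether the deposited counts precede it, or used the strand, is not given in the sources used here. Of 6455 control and 5865 mutant barcodes, 186 and 202 were left out for fewer than 500 genes or over 10% mitochondrial UMIs. No doublets were removed from the values reported, and barcodes of high doublet score (333 and 275, from simulated doublets and 50 nearest neighbours) were left out in an alternative.

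Counts were summed over cells per library, and per state after cells were thinned to 5000 UMIs, which left 168 control and 351 mutant cells without a state. Levels were scaled to CPM with exact Poisson intervals, ratios had exact conditional intervals of a pair of Poisson counts, and shares had exact Clopper-Pearson intervals, all at 95% and for counting error alone. With 1 library per group, neither edgeR nor DESeq2 was used for a test. edgeR 4.0.16 gave TMM factors and DESeq2 1.42.0 median-of-ratios factors for the alternatives. Other steps used Python 3.11.15, numpy 2.4.6, scipy 1.17.1, pandas 2.3.3 and scikit-learn 1.9.0, and were tested on simulated data. Gene positions came from GENCODE M39, which matched 31977 of 32544 identifiers. Protein sequences were not analysed here.

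The genes, the other lists and the gates were chosen with earlier results of these data known. Myc, Npm1, Ncl and the 2 genes of each role with the largest log2 ratio were given with levels and intervals, and the 2 highest and 2 lowest genes of each pathway list were named, most by their log2 ratio alone. Genes given besides these, among them Noc2l and the members named within states, were chosen after their values were seen.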

Additional observations from a re-analysis of the deposited data

Results flagged for a closer look

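Noc2l, a gene of large subunit assembly, moved in opposite directions between cell states in the libraries. In the control library it was higher in cells of the cycling gate alone than in cells of neither gate, with 106 and 99.2 CPM and a log2 ratio of 0.092 (0.046 to 0.14). In the mutant library it was lower, with 92.3 and 97.3 CPM and a log2 ratio of -0.075 (-0.13 to -0.02). Both ratios are well within 1.2-fold, each rests on 1 library, and the difference between them was not tested.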

How the results depend on the processing

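Of 127 alternative values, 95 stayed within the spread set for them, 32 moved and 0 reversed a called direction. All 40 genes stayed below 0 over all cells under the 8 alternatives tried on scaling, cell weight, depth, doublets, cell filter and other cell types, and the count of genes lower past 1.2-fold ran from 33 (thinned cells) to 37 (no minimum level). Another scaling made the difference between the libraries larger. The median over all cells was -0.63 with TMM factors, -0.65 with median-of-ratios factors and -0.67 with totals lacking mitochondrial and ribosomal protein genes, and Myc was at -0.38, -0.41 and -0.42. These scalings put the median of all genes at -0.04, -0.07 and -0.09. In neither gate the median of mutant over control was -0.54 with TMM factors, -0.58 with the reduced totals and -0.40 with gates on unthinned counts. In the cycling gate alone it was -0.69 with TMM factors, -0.69 with median-of-ratios factors, -0.68 with the reduced totals, -0.65 with gates at 2000 UMIs and -0.49 with unthinned gates, and in the OC gate alone -0.32 with gates at 2000 UMIs. Over neither gate, control cells of the cycling gate alone were at 0.15 with gates at 2000 UMIs and 0.37 with unthinned gates, those of the OC gate alone at 0.19 with unthinned gates and those of both gates at 0.47 with either TMM or median-of-ratios factors. Mutant cells of the cycling gate alone were at 0.27 with unthinned gates, and those of the OC gate alone at 0.54 with gates at 2000 UMIs and at -0.14 with unthinned gates. For 3 or more Myc UMIs over 0, another random seed gave 0.24 in control cells, 0.42 in control cells of neither gate, 0.70 in mutant cells and 0.84 in mutant cells of neither gate. Thinning to 2000 UMIs gave 0.51 in control cells of neither gate, 0.74 in mutant cells and 1.06 in mutant cells of neither gate, and leaving out high doublet scores 0.68 and 0.89 in these mutant groups. The cause of these shifts was not tested. Leaving out Myc, Npm1 and Ncl, an alternative chosen after seeing the data, gave a median of -0.55. No paired analysis was possible because each group has 1 library.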

Other observations

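Cells with at least 30 neutrophil-marker UMIs at 5000 UMIs per cell, 18 control and 78 mutant cells, held the 40 genes at a lower summed level than any cell state of the same library did, with 3210 CPM (2969 to 3465) for control and 2127 CPM (2044 to 2213) for mutant cells.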
